A study of Mus musculus with 4 samples.

Results

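The genes described here are 10 markers of the osteoblast, the cell that builds bone: the transcription factor genes Runx2, Sp7, Dlx5 and Msx2 and the matrix and mineralization genes Alpl, Spp1, Ibsp, Bglap, Dmp1 and Phex. They were chosen by symbol from the 55487 genes of the deposited count table, all 10 were found, and all 10 had enough reads to be tested beside 15706 genes in all. Poly(A) RNA was sequenced from tumours of AXT, a mouse osteosarcoma line known as a c-MYC-driven line made from marrow stromal cells that lack Ink4a/Arf, a background that mock and KO cells share. The knockout (KO) group held 3 libraries from HIF-1alpha-deficient lines named HIF-1alphaKO AXT1-1, AXT1-2 and AXT2, and the mock group held 1 library from Mock AXT cells with genotype WT. In both groups 2000000 cells in matrigel were placed in C57BL/6scid mice, which are immunodeficient, and the tumours were removed at day 1. The table names the KO libraries c11, c15 and c22 without saying which line each is, and the labels do not say whether a line is 1 clone or whether each tumour came from its own animal, so p-values measure only the spread between these libraries.

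Osteoblasts arise from mesenchymal stem cells. RUNX2 commits a cell to the lineage and SP7 (osterix), which acts after it, drives the step to a matrix-producing cell, while the homeobox factors DLX5 and MSX2 respond to bone morphogenetic proteins (BMPs) and tune both. Mature cells secrete a collagen matrix with acidic glycoproteins, free phosphate through alkaline phosphatase, and finally become osteocytes, which make DMP1 and PHEX to control mineral and phosphate. Osteosarcoma cells are malignant cells of this lineage and often stop part of the way along it.

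Library totals were 12910058, 13193264 and 13081007 counts for KO libraries c11, c15 and c22 and 12383719 for mock. Levels are CPM, a count scaled to its library total, and a count of 0 allowed up to 0.232, 0.227 and 0.229 CPM in KO libraries c11, c15 and c22 and up to 0.242 CPM in mock, for counting error only. Hif1a was at 104, 98.7 and 22.3 CPM in KO libraries c11, c15 and c22 and at 107 CPM in mock, so a gene-level count set only c22 apart, and it does not check the protein. Of 9 textbook HIF targets, 8 were below mock in all 3 KO libraries, as were 22.5% of all tested genes. Markers of some other cells also differed. Skeletal muscle markers summed to 7.44, 1.82 and 28.9 CPM in KO libraries c11, c15 and c22 and 125 CPM in mock, with 9 of 11 tested lower at an unadjusted edgeR p under 0.05, as were 2.56% of all tested genes. These 9 include Myh1, with 0, 0 and 2 counts in the KO libraries and 55 in mock. It passed the low-count filter through mock alone, where it is high, so its p-value is no independent support. Erythroid markers summed to 1.63, 4.24 and 41.1 CPM in the KO libraries and 116 CPM in mock, and macrophage markers to 277, 394 and 507 CPM in the KO libraries and 880 CPM in mock. Host fibroblast markers summed to 432, 379 and 315 CPM in the KO libraries and 412 CPM in mock, but Cxcl12 alone made up 320 CPM of the c11 sum and 33.1 CPM of that of mock. Of 9 tested, 4 were below and 0 above mock in all 3 KO libraries (22.5% and 21.0% of all tested genes). The median log2 fold change of these 9 was -0.76. Neutrophil markers summed to 4.65, 14.6 and 16.5 CPM in KO libraries c11, c15 and c22 and 10.2 CPM in mock. Endothelial markers summed to 14.6, 9.63 and 8.03 CPM in the KO libraries and 14.5 CPM in mock. For both, the KO sums lay on both sides of mock. In such bulk samples, fewer cells of a type and less RNA per cell cannot be told apart.

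Across the 10 genes, 7 were lower in every KO library than in mock: Runx2, Sp7, Dlx5, Msx2, Ibsp, Bglap and Dmp1. That is 70.0% of the 10 genes, while 22.5% of all tested genes lay below mock in all 3 KO libraries and 21.0% above it. The 10 were chosen with earlier results of these data known, so this excess is no independent support. All of these counts also rest on the same mock library. Alpl, Spp1 and Phex had c15 above mock and the other KO libraries below it, and no gene of the 10 was above mock in all 3. By edgeR's quasi-likelihood test with Benjamini-Hochberg adjustment over all genes, 0 of the 10 passed 0.05, where 0.00637% of all genes were called lower and 0.0% higher. DESeq2 also called 0 of the 10, where it called 0.42% of all genes lower and 0.306% higher, and limma-voom called 0. At an unadjusted edgeR p under 0.05, 3 of the 10 were lower (Runx2, Msx2 and Dmp1) and 0 were higher, against 2.56% and 1.12% of all genes. Of these 3, Msx2 passed the low-count filter through mock alone, where it is high. Its p-value and its place among the 7 are therefore no independent support. The median log2 fold change (KO minus mock) of the 10 was -0.90, beside 0.05 over all tested genes.

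**Figure D1:**
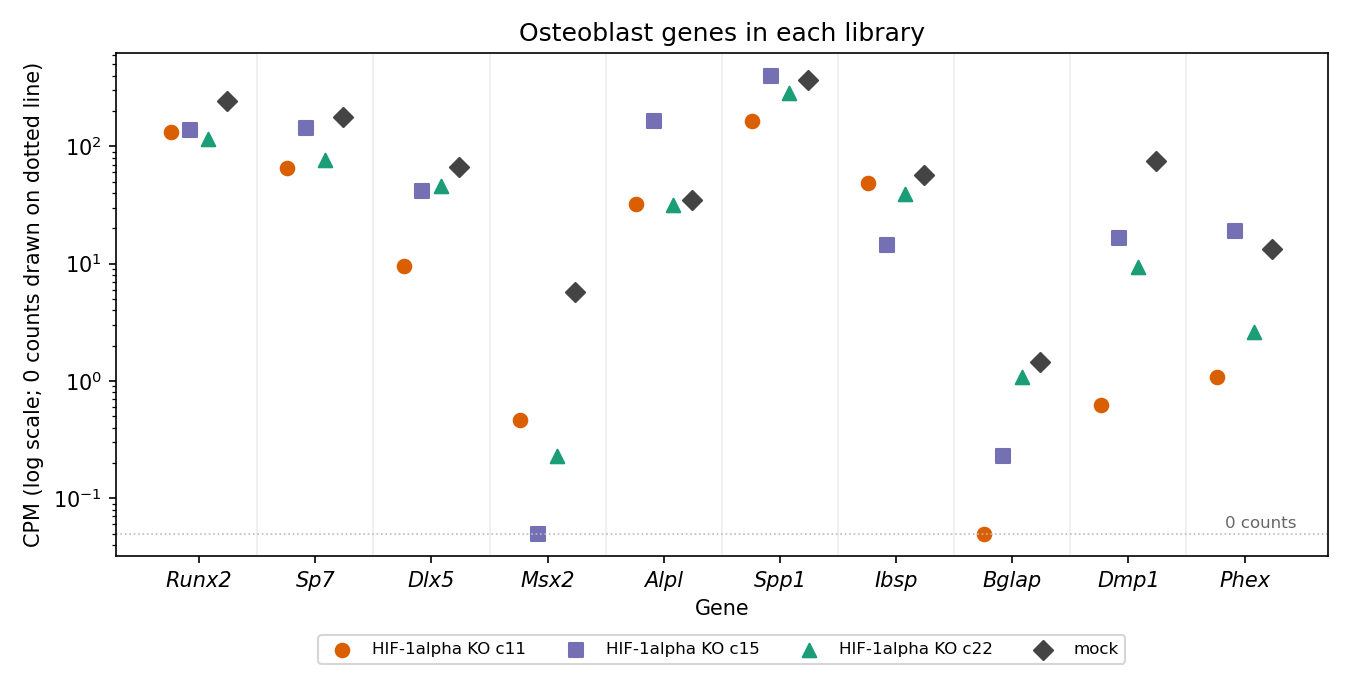
CPM of each gene (log axis) in the 3 KO libraries and the mock library, with a count of 0 drawn on the dotted line. Mock is the highest library for 7 genes, and c15 is the highest for Alpl, Spp1 and Phex.

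The KO libraries also differed among themselves. All 10 genes were below mock in c11 and in c22, and 7 of 10 in c15, where 48.2%, 52.1% and 51.1% of all tested genes were below mock in c11, c22 and c15. Among the KO libraries, c11 was the lowest for 6 genes and c15 the highest for 6. The median log2 ratio to mock, with 0.5 CPM added to both levels, was -1.69 for c11, -0.75 for c15 and -0.80 for c22. The spread between the KO libraries, taken as the log2 range with 0.5 CPM added, was above the median of all tested genes (0.69) for 9 of the 10. It was above the 90th percentile (1.73) for Dmp1, Phex, Alpl and Dlx5, with ranges of 3.92, 3.63, 2.35 and 2.21. Runx2 had the smallest range of the 10, 0.26.

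Per kilobase of exon, Spp1 was the highest of the 10 in both groups, at 171 ± 71.2 CPM per kb (SD, n = 3) in the KO libraries and 222 CPM per kb in mock. Sp7 came next, at 28.0 ± 12.5 CPM per kb in the KO libraries and 52.0 CPM per kb in mock. In the KO libraries the following levels were 18.9 ± 19.0 CPM per kb for Alpl, 16.5 ± 8.52 for Ibsp, 14.6 ± 1.35 for Runx2 and 14.3 ± 8.78 for Dlx5, and the SD ranges of these neighbours, and of Sp7 and Alpl, overlapped. Dmp1 (3.18 ± 2.87 CPM per kb), Phex (1.21 ± 1.59) and Bglap (0.70 ± 0.91) also had overlapping SD ranges, and Msx2 had the lowest mean, 0.071 ± 0.071. The order in mock differed mainly for Dmp1 and Alpl: Dlx5, Runx2, Ibsp and Dmp1 stood together at 29.4, 27.7, 27.5 and 27.3 CPM per kb, with Alpl at 8.69, Bglap at 2.35, Phex at 2.11 and Msx2 at 1.75 CPM per kb.

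Runx2 (ENSMUSG00000039153, chromosome 17, 44495987 to 44814797, GRCm38, minus strand), the master regulator of the lineage, was at 133, 139 and 116 CPM in KO libraries c11, c15 and c22, against 245 CPM in mock. The KO libraries sat close together and well below mock. The mean of 129 ± 11.9 CPM (SD, n = 3) was 1.89-fold lower than mock. On the log2 scale the fitted difference was -0.92 (SE 0.28, unadjusted p = 0.0176, edgeR adjusted p = 0.911), and it stayed between -0.98 and -0.85 over all alternatives. Supt3, a gene of the opposite strand that overlaps the Runx2 span, had 100, 151 and 164 counts in the KO libraries and 83 in mock, and the antisense gene Runx2os1 had 38, 59 and 29 counts in the KO libraries and 28 in mock. Both are small beside the 1516 to 1832 counts of Runx2 in the KO libraries and its 3030 in mock.

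Promoter windows of RefSeq (GRCm38.p6, 250 bases before to 50 after a start) were present for 8 of the 10 genes, and not for Sp7 and Dlx5. The core that RUNX factors bind, TGTGGT on either strand (ACCACA on the other), occurred in a window of 4 of the 8: Runx2, Spp1, Bglap and Dmp1. It occurs in the windows of 18.9% of all 27025 genes in that table, and in 16.8% of its 32851 windows. A match is a description of the letters and not evidence of binding. The stretch from 180 to 61 bases before the start is shown for these 4 genes, 5′ to 3′ on the gene's strand with the core in capitals, since it lets the regulator's motif be seen beside genes whose levels differed in unlike ways. The windows are chr17:44814688-44814807 (minus strand) for Runx2, chr5:104434931-104435050 (plus) for Spp1, chr3:88384527-88384646 (minus) for Bglap and chr5:104202437-104202556 (plus) for the second of the Dmp1 starts.
Runx2: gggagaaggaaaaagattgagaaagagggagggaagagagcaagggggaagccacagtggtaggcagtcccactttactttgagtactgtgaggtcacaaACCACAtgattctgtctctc
Spp1: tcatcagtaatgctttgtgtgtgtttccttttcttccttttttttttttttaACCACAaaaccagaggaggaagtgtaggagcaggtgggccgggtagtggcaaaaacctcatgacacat
Bglap: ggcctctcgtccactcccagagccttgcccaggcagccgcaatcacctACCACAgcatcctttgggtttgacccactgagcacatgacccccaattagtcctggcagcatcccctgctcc
Dmp1: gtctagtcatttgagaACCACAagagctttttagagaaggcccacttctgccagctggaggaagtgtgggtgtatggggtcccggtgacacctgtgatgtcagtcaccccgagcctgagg

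In these windows the core begins 80 bases before the start in Runx2, 128 in Spp1, 132 in Bglap and 164 in Dmp1. The core of the HIF site, ACGTG on either strand (CACGT on the other), was in a window of 1 of the 8 genes, Dmp1, and in those of 21.8% of all genes. In the Dmp1 window, at the other start, both matches are the palindrome CACGTG, which holds the core on both strands and is also the E-box of basic helix-loop-helix factors.

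Sp7 (chromosome 15, 102356606 to 102367182, minus strand), which encodes osterix, was at 65.6, 144 and 76.2 CPM in KO libraries c11, c15 and c22, against 177 CPM in mock. All KO libraries were below mock, c15 only slightly. The KO mean was 95.3 ± 42.5 CPM (log2 fold change -0.89, SE 0.48, edgeR adjusted p = 1.0), and the value was -1.31 without c15.

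Dlx5 (chromosome 6, 6877805 to 6882085, minus strand), a homeobox gene induced by BMPs, was at 9.53, 41.5 and 45.9 CPM in KO libraries c11, c15 and c22, against 66.5 CPM in mock. The c11 library stood apart, 6.98-fold below mock, and c22 was the nearest to mock, 1.45-fold below it. Its estimated log2 difference was -1.03 (SE 0.78, edgeR adjusted p = 1.0), and -0.59 without c11. Dlx6, the linked partner gene of Dlx5, had the same order of libraries, at 4.65, 18.3 and 33.9 CPM in KO libraries c11, c15 and c22 and 41.0 CPM in mock.

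Msx2 (chromosome 13, 53466884 to 53473074, minus strand), a homeobox gene of the BMP response and of skull growth, had 6, 0 and 3 counts in KO libraries c11, c15 and c22, against 71 counts in mock. In CPM these were 0.46, 0 and 0.23 in the KO libraries, against 5.73 in mock. Every KO library was far below mock, and Msx2 passed the low-count filter through its mock counts alone. The c11 library was 12.3-fold lower, and c15, with 3 counts allowed for its 0, at least 25.2-fold lower than the measured level in mock. As KO over mock, the exact 95% counting interval, which also covers the counting error of mock, was 0.029 to 0.185 for c11 and 0.0081 to 0.122 for c22, and it reached up to 0.050 for c15, so these intervals overlapped. edgeR put its log2 fold change at -4.58 (SE 0.84, unadjusted p = 8.63e-04, edgeR adjusted p = 0.271), and over all alternatives it ranged from -5.51 without c11 to -4.01 without c15, with adjusted p of 0.264 or more. Msx1, its paralog, was at 0.39, 7.73 and 0.46 CPM in the KO libraries and 3.47 CPM in mock, and so had c15 above mock.

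**Figure D2:**
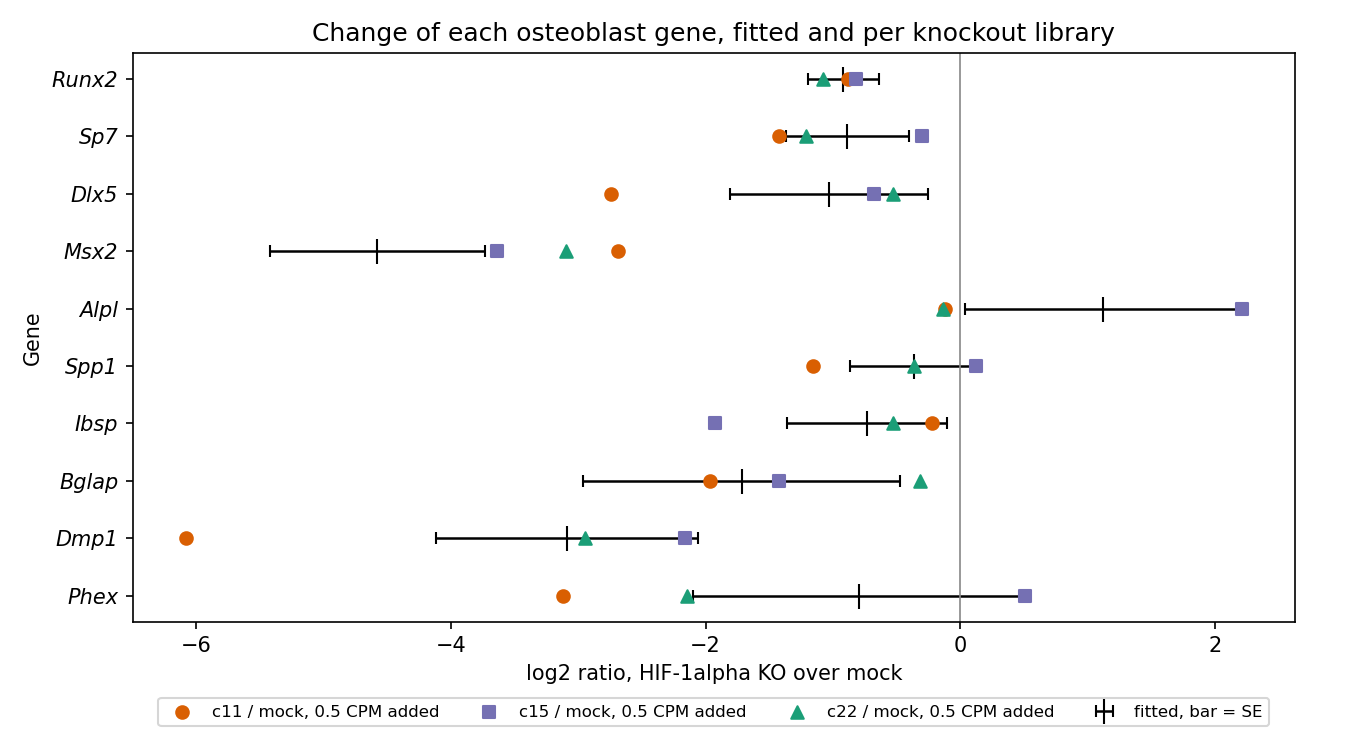
Log2 ratio of KO over mock for each gene: the fitted value with its SE, and each KO library over mock with 0.5 CPM added, which pulls low genes such as Msx2 toward 0. Runx2 has its 3 libraries within 0.26 of each other, whereas Dmp1 and Phex spread over more than 3.

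Alpl (chromosome 4, 137741733 to 137796384, minus strand) encodes tissue-nonspecific alkaline phosphatase, which frees phosphate for mineral. It was at 32.1, 165 and 31.9 CPM in KO libraries c11, c15 and c22, against 35.0 CPM in mock. The c15 library was 4.70-fold above mock (exact 95% counting interval 4.24 to 5.22), and the counting intervals of c11 (0.80 to 1.05) and c22 (0.79 to 1.04) included a ratio of 1. The fitted log2 fold change of 1.13 (SE 1.09, edgeR adjusted p = 1.0) rested on c15, and it was -0.13 without it.

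Phex (chromosome X, 157162075 to 157415312, minus strand), the endopeptidase gene mutated in X-linked hypophosphataemia, was at 1.08, 19.1 and 2.60 CPM in KO libraries c11, c15 and c22, against 13.2 CPM in mock. As for Alpl, c15 was above mock, 1.44-fold (counting interval 1.18 to 1.77), while c11 and c22 were 12.2-fold and 5.10-fold below it. On the log2 scale the fitted difference was -0.79 (SE 1.31, edgeR adjusted p = 1.0). Without c15 it was -2.83, with an edgeR adjusted p of 0.358.

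Dmp1, Ibsp and Spp1 belong to the SIBLING family of acidic, integrin-binding glycoproteins of bone, whose genes lie side by side on chromosome 5 with Dspp and Mepe, from 104170712 to 104441050. Dmp1 (104202613 to 104214102, plus strand), a mineral regulator of osteocytes, had 8, 217 and 122 counts in KO libraries c11, c15 and c22, against 935 in mock. In CPM these were 0.62, 16.4 and 9.33 in the KO libraries, against 75.5 in mock, so all KO libraries were below mock and c11 was lowest. The ratio of mock to KO was 122 for c11, 4.59 for c15 and 8.10 for c22. Its estimated log2 difference was -3.09 (SE 1.03, unadjusted p = 0.0255, edgeR adjusted p = 1.0, DESeq2 adjusted p = 0.537). It was -2.53 without c11 and -3.90 without c15.

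Ibsp (104299171 to 104311469, plus strand), the gene of bone sialoprotein, a nucleator of mineral, was at 48.7, 14.6 and 39.1 CPM in KO libraries c11, c15 and c22, against 56.8 CPM in mock. Here c15, not c11, was the lowest, 3.90-fold below mock, and c11 was only 1.17-fold below. edgeR put its log2 fold change at -0.73 (SE 0.63, edgeR adjusted p = 1.0), and -0.37 without c15.

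Spp1 (104435118 to 104441050, plus strand) encodes osteopontin, a matrix protein that macrophages and osteoclasts also make. It was at 164, 399 and 284 CPM in KO libraries c11, c15 and c22, against 365 CPM in mock. The c15 library was 1.09-fold above mock and c11 2.23-fold below, so the groups overlapped. On the log2 scale the fitted difference was -0.37 (SE 0.50, edgeR adjusted p = 1.0), and -0.08 without c11. Macrophage markers had the same lowest KO library, c11, but their sum was highest in c22 (507 CPM), and Spp1 was highest in c15. Among these markers, 10 of 12 were below mock in all 3 KO libraries, as were 22.5% of all tested genes. The part of macrophages in the Spp1 values was not tested. Osteoclast markers summed to 15.8, 14.6 and 13.5 CPM in the KO libraries and 25.2 CPM in mock. Among them, 3 of 3 tested were below mock in all KO libraries, beside the same 22.5% of all tested genes. Of the defining osteoclast genes, Calcr had 0 counts in every library. Acp5 had 3, 0 and 3 counts in the KO libraries and 7 in mock.

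The other cluster genes were nearly silent. Dspp, a dentin gene, had 0 counts in all 4 libraries, and Mepe, an osteocyte gene, had 0 in every KO library and 3 in mock. Within 500 kb of the cluster on either side, 9 other genes were tested. Of these, 3 were below and 1 above mock in all 3 KO libraries, beside 22.5% and 21.0% of all tested genes. The log2 fold changes of the 9 neighbours ran from -0.47 for Hsd17b11 to 0.80 for Sparcl1, with a median of -0.03. That of Dmp1 lay below all of them.

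**Figure D3:**
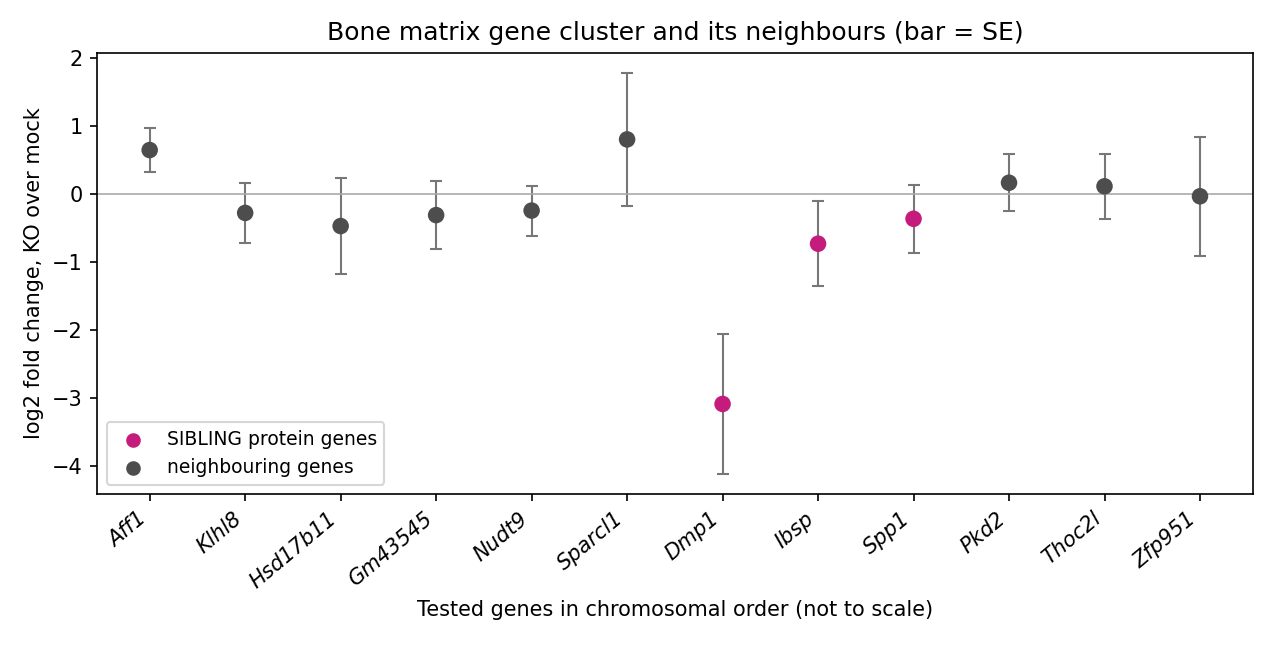
Fitted log2 fold change (KO over mock, bar = SE) of the 12 tested genes in and around the SIBLING cluster, in chromosomal order. Dmp1 lies at -3.09, and the 9 neighbouring genes between -0.47 and 0.80.

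Bglap (chromosome 3, 88383501 to 88384464, minus strand) encodes osteocalcin, a late marker of the osteoblast. It had 0, 3 and 14 counts in KO libraries c11, c15 and c22, against 18 counts in mock, or 0, 0.23 and 1.07 CPM in the KO libraries, against 1.45 CPM in mock. With 3 counts allowed for the 0 in c11, that library was at least 6.26-fold lower than the measured level in mock. The exact 95% counting interval of KO over mock, which also covers the counting error of mock, reached up to 0.218 for c11, and that of c22 (0.34 to 1.57) included 1. Its estimated log2 difference was -1.72 (SE 1.24, edgeR adjusted p = 1.0), -3.56 without c22 and -1.13 without c11.

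Mice carry neighbouring copies of this gene, Bglap2 and Bglap3, which share long runs of sequence, so reads can be split or lost between them. The coding sequences of all 3 have 288 bases in GENCODE M21; Bglap2 matches Bglap at 284 of them (98.6%) and Bglap3 at 275 (95.5%). Of all stretches of 50 bases in Bglap transcripts, 56.6% also occur in a transcript of another copy, against 88.2% for Bglap2 and 6.99% for Bglap3, whose transcripts have long exons of their own upstream. The first 150 coding bases are shown, with capitals at the 5 positions where the copies differ, to show how little a short read within this stretch has to tell them apart. This does not hold along whole Bglap3 transcripts, where only 6.99% of the 50-base stretches are shared.
Bglap: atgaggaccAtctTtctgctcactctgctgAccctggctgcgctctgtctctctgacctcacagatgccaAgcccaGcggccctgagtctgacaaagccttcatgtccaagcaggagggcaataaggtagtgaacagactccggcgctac
Bglap2: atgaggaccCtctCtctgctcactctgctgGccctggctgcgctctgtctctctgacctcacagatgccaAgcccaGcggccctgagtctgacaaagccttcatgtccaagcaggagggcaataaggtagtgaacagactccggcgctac
Bglap3: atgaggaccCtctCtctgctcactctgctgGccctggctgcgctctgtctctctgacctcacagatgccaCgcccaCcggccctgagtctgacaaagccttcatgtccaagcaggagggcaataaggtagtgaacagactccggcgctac

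Bglap2 had 5, 15 and 47 counts in KO libraries c11, c15 and c22 and 19 in mock, and Bglap3 had 15, 34 and 58 counts in the KO libraries and 2 in mock. Bglap3 was therefore above mock in every KO library, opposite to Bglap, at 1.16, 2.58 and 4.43 CPM in the KO libraries and 0.16 CPM in mock (edgeR adjusted p = 1.0). Bglap held 0%, 5.77% and 11.8% of the counts of the 3 copies in KO libraries c11, c15 and c22 and 46.2% in mock. Summed, the copies were at 1.55, 3.94 and 9.10 CPM in the KO libraries and 3.15 CPM in mock, a log2 fold change of 0.64 (SE 1.04, edgeR adjusted p = 1.0), so the direction seen for Bglap alone did not hold for the 3 together.

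**Figure D4:**
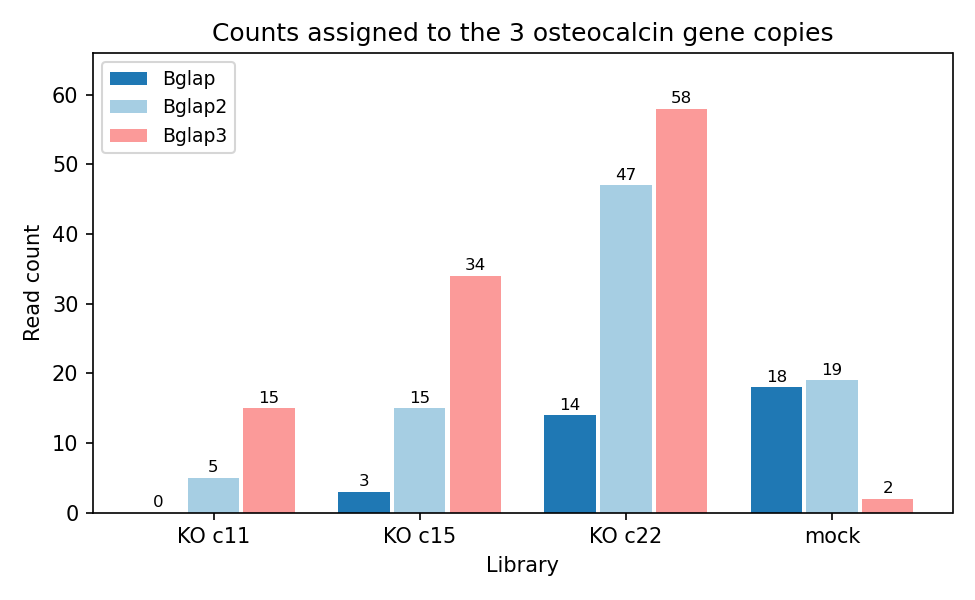
Read counts assigned to Bglap, Bglap2 and Bglap3 in each library. Bglap has 0 to 14 counts in the KO libraries and 18 in mock, and Bglap3 has 15 to 58 in the KO libraries and 2 in mock.

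Other regulators of the lineage were measured beside these genes. Of 21 tested, 0 passed edgeR over all genes in either direction, 7 were below and 1 above mock in all 3 KO libraries (22.5% and 21.0% of all tested genes), and the median log2 fold change was -0.18. The lowest was Fosl1, an AP-1 gene that promotes bone matrix formation, at 3.95, 11.2 and 4.51 CPM in KO libraries c11, c15 and c22 and 45.0 CPM in mock (log2 fold change -2.77, SE 0.59, edgeR adjusted p = 0.451, DESeq2 adjusted p = 0.0372). Dlx3, another member of the Dlx family, was at 19.1, 4.02 and 13.2 CPM in the KO libraries and 33.8 CPM in mock. The highest was Twist2, which restrains RUNX2, at 28.3, 27.7 and 10.9 CPM in the KO libraries and 7.59 CPM in mock, followed by the WNT effector Lef1, at 15.7, 0.76 and 3.67 CPM in the KO libraries and 3.88 CPM in mock. Cbfb, whose protein partners RUNX2 and strengthens its binding to DNA, had KO libraries on both sides of mock, at 141, 169 and 106 CPM in the KO libraries and 157 CPM in mock. BMP ligands, receptors and effectors, which act upstream of Dlx5 and Msx2, had a median of 0.04 over 17 tested genes, with 0 called, and 0 below and 5 above mock in all 3 KO libraries, beside the same 22.5% and 21.0% of all genes. Their highest values were those of Bmpr1b (log2 fold change 3.24, SE 1.47) and Acvr1 (0.79, SE 0.38), both receptor genes, and their lowest with a mean of at least 1 CPM those of the BMP target genes Id1 (-0.35, SE 0.46) and Id3 (-0.34, SE 0.56).

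For other bone matrix genes the counts were near those of all tested genes. Of 20 tested, 0 passed edgeR, 5 were below and 4 above mock in all 3 KO libraries, where 22.5% of all genes were below and 21.0% above, and the median log2 fold change was 0.25. Col1a1, the main collagen gene of bone, was at 1913, 1093 and 4700 CPM in KO libraries c11, c15 and c22 and 862 CPM in mock, above mock in every KO library. Col1a2, which encodes the other chain of the same collagen, was at 1083, 1627 and 3398 CPM in the KO libraries and 2292 CPM in mock, with c22 alone above mock (both chosen after their values were seen). The lowest were the small proteoglycan genes Omd (osteomodulin), at 2.63, 9.25 and 3.06 CPM in the KO libraries and 19.2 CPM in mock, and Bgn (biglycan), at 27.7, 6.75 and 6.57 CPM in the KO libraries and 46.0 CPM in mock. The highest was Col11a1, a fibrillar collagen gene, with 39.7 CPM in c11, 0.15 in c15 and 0 in c22 and 0.32 CPM in mock, so that its log2 fold change of 5.30 (SE 4.05) rested on c11 alone, followed by Bglap3.

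Genes of mineral and phosphate handling had a median of -0.34 over 13 tested, with 0 called, and 5 below and 2 above mock in all 3 KO libraries (22.5% and 21.0% of all genes). Smpd3, a sphingomyelinase gene needed for bone mineralization, was at 11.6, 14.8 and 1.76 CPM in KO libraries c11, c15 and c22, against 61.1 CPM in mock (log2 fold change -2.70, SE 0.83, edgeR adjusted p = 0.923). Fam20c, the kinase gene for secreted phosphoproteins including SIBLING proteins, was at 11.9, 5.00 and 15.4 CPM in the KO libraries, against 23.3 CPM in mock. On the other side were Galnt3, a glycosyltransferase gene that protects the phosphate hormone FGF23, at 3.10, 4.09 and 4.20 CPM in the KO libraries and 0.89 CPM in mock, and the phosphate transporter gene Slc20a1, at 173, 178 and 97.8 CPM in the KO libraries and 70.3 CPM in mock. The Fgf23 gene itself had 0 counts in all 4 libraries.

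Signals of osteocytes and of osteoclast control had a median of -0.75 over 10 tested genes, with 0 called, and 7 below and 0 above mock in all 3 KO libraries (22.5% and 21.0% of all genes). Tnfrsf11b, the gene of osteoprotegerin, the decoy receptor that blocks osteoclast formation, was at 0.23, 1.14 and 0.76 CPM in KO libraries c11, c15 and c22, against 8.24 CPM in mock (log2 fold change -3.51, SE 0.69, edgeR adjusted p = 0.376). Dkk1, a secreted WNT inhibitor gene, was at 0, 1.44 and 0 CPM in the KO libraries, against 4.36 CPM in mock. The highest were Csf1, the macrophage growth factor gene (log2 fold change 0.64, SE 0.63), and the parathyroid hormone receptor gene Pth1r (0.25, SE 0.41). Sost, the gene of the osteocyte protein sclerostin, had 0 counts in every library. Muscle, erythroid and macrophage markers were lower in the KO libraries beside all these lists, and their part in them was not tested.

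**Figure D5:**
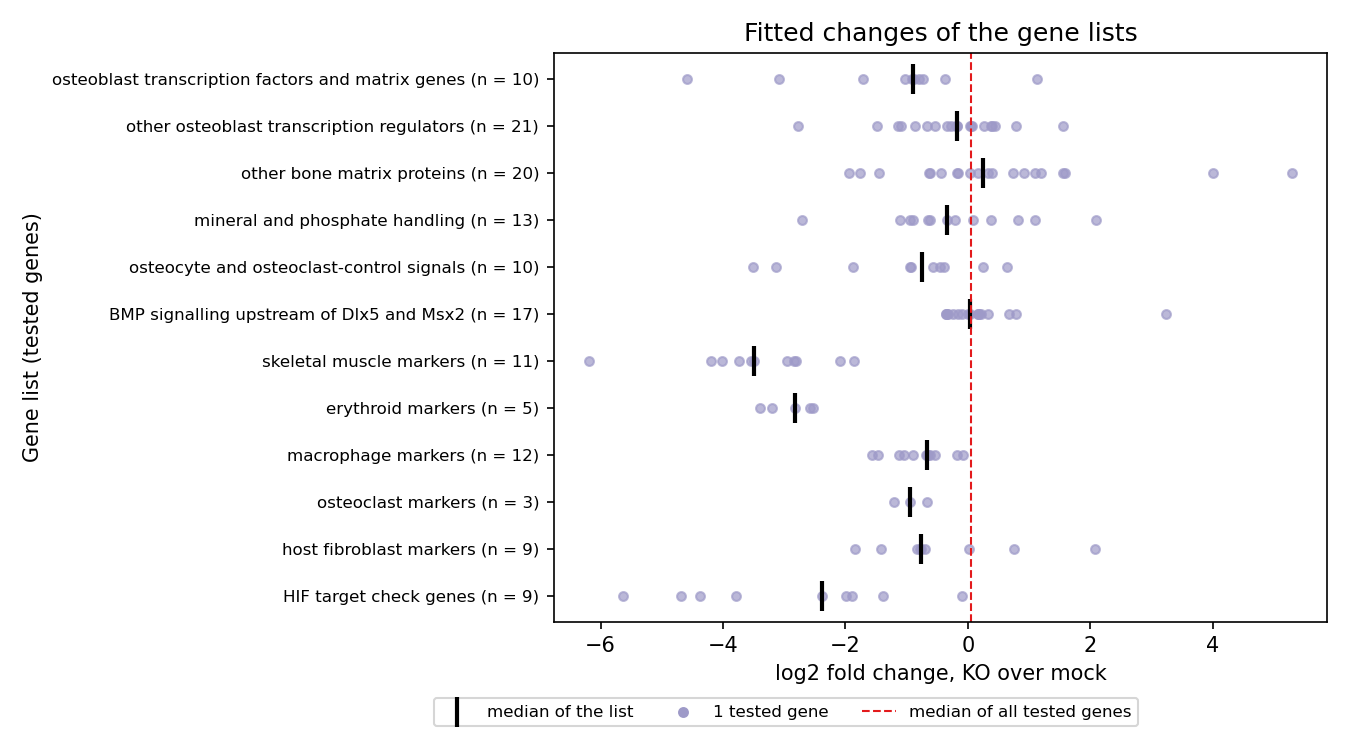
Fitted log2 fold change (KO over mock) of each tested gene by list, with the list's median and, as a dashed line, the median of all tested genes (0.05). The 10 osteoblast genes have a median of -0.90, other bone matrix genes 0.25 and muscle markers -3.49. Lists not drawn are SIBLING genes (median -0.73) and chondrocyte (1.12), adipocyte (0.22), neutrophil (0.63) and endothelial markers (-0.37).

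Markers of other mesenchymal fates were low or uneven. The summed chondrocyte markers were highest in c11, where most of the sum was Sox9, the cartilage regulator gene. Sox9 was at 67.7 CPM in c11, 3.49 in c15, 15.7 in c22 and 9.45 in mock. Sox5 and Sox6 were also highest in c11. The lowest log2 fold changes at a mean of at least 1 CPM were those of Ihh and Matn3. Ihh was at 0, 2.43 and 0.23 CPM in the KO libraries and 2.02 CPM in mock. Matn3 was at 3.18, 2.50 and 1.61 CPM in the KO libraries and 3.39 CPM in mock. Col2a1, the cartilage collagen gene, was at 0.46, 0.30 and 0.69 CPM in the KO libraries and 1.86 CPM in mock. Of 7 chondrocyte markers tested, 2 (Col2a1 and Matn3) were below and 0 above mock in all 3 KO libraries (22.5% and 21.0% of all tested genes). Col2a1 passed the low-count filter through mock alone, where it is high, so its place among the 2 is no independent support. Adipocyte markers summed to 97.3, 55.0 and 47.4 CPM in the KO libraries and 61.8 CPM in mock. Lpl, a lipase gene, made up 94.4 CPM of the c11 sum, while the fat cell regulator genes Cebpa and Pparg were lowest in c11. Cebpa was at 2.17, 14.3 and 17.6 CPM in the KO libraries and 14.2 CPM in mock, and Pparg at 0.077, 1.06 and 0.99 CPM in the KO libraries and 0.32 CPM in mock.

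Likeness between genes was described as the Euclidean distance between log2 profiles over the 4 libraries (0.5 CPM added, each centred on its mean) among 10175 other genes with a mean of at least 5 CPM. Nearest to Runx2 were Cpne3 (distance 0.055; 72.6, 77.5 and 64.2 CPM in KO libraries c11, c15 and c22 and 130 CPM in mock) and Lrch2 (0.099). Nearest to Sp7 were Me2 (0.077) and Cd209f (0.14), to Dlx5 Uchl1 (0.16) and Ripor2 (0.24), and to Spp1 Anxa5 (0.059) and Lyn (0.11). Ibsp had Zfp532 (0.26) and Map4k1 (0.30), Alpl had Mcf2l (0.42) and Slc22a23 (0.46), and Phex had Lama3 (0.38) and Sybu (0.54). Dmp1 had the most distant nearest genes, Fez1 at 1.11 and Wnt7b at 1.31. Profiles were not scaled by their spread, and Dmp1 had the widest log2 range between KO libraries of the 10 (3.92). Its larger distances therefore do not show an unusual pattern. Among the 10 genes themselves the closest pair was Sp7 and Spp1 (0.61) and the farthest Ibsp and Dmp1 (4.71), of the 8 genes with a mean of at least 5 CPM.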

How the data were processed

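The authors deposited a table of raw counts for Ensembl genes, with a column for each library and no other per-sample columns. The library kit was directional, per the labels. The submitters' processing notes name HISAT2 2.1.0, featureCounts 1.6.3, SAMtools 1.9, Trimmomatic 0.38, FastQC 0.11.7 and GRCm38. Strand and multi-mapping settings are not given in the sources used here. The 10 genes and the lists were chosen with earlier results of these data known.

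CPM is a count over the library total. Genes passing filterByExpr (15706) were scaled by TMM and tested with edgeR 4.0.16 (R 4.3.3; quasi-likelihood, robust, legacy = FALSE, 2-sided), adjusted by Benjamini-Hochberg, threshold 0.05. The legacy = FALSE setting was chosen after legacy = TRUE had been run first, to match earlier processing of these data; the counts of calls under both are given with the alternatives. The spread came from the KO libraries (2 residual degrees of freedom); mock, with 1 library, was taken to vary alike. Because mock held 1 library, a gene could pass the filter on 1 library, mock included. SEs come from the F statistic. An exact permutation of 1 against 3 cannot go below p = 0.25 and was not run. The fit was tested on simulated data with known changes. It recovered 31 of 100 genes changed by a log2 of 2 and 94 of 100 changed by 4, with 11 false calls. Only genes with a mean of at least 5 CPM were changed, so the rates do not cover Msx2 and Bglap (means of 1.61 and 0.69 CPM). The simulated mock had the same dispersions as the KO libraries, which 1 mock library cannot check, so the rates may not hold for the real data. Smaller changes were not simulated. Alternatives were RLE and upper quartile scaling, other filters, DESeq2 1.42.0, limma-voom (limma 3.58.1), each KO library left out and the Bglap copies summed. Besides the 10 genes, the genes named are the 2 highest and 2 lowest per list whose mean reached 1 CPM. In the muscle, erythroid, macrophage, osteoclast, neutrophil, endothelial, host fibroblast and HIF target lists, these were not all named. Those lists are given mainly as sums or counts. Also named are the 2 nearest profiles of each gene with a mean of 5 CPM and the extremes of the neighbouring genes. Dspp and Mepe are named as genes of the cluster. Col1a1, Col1a2, Pparg, Cbfb, Dlx6, Msx1, Sost, Fgf23, Calcr, Acp5, Col2a1, Sox6 and overlapping genes were added after their values were seen. Exon lengths are unions from GENCODE M21, in which 55227 of 55487 IDs were found.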

Additional observations from a re-analysis of the deposited data

How the results depend on the processing

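Of 100 refitted values of the 10 genes, 98 kept their sign and none passed the threshold; the lowest adjusted p was 0.264. The exceptions were Alpl, from -0.13 without c15 to 1.50 without c11, and Bglap at 0.64 with its copies summed. Bglap could not be fitted under the filter on a mean of 1 CPM. The median of the 10 genes stayed within the spread of the libraries. The count of genes called lower was 1, and it was 4 with no low-count filter, 66 with DESeq2, 0 with limma-voom and 0 with the earlier edgeR quasi-likelihood method, an alternative chosen after seeing the data; leaving out each KO library gave 0 to 0. The count called higher was 0, and 48 with DESeq2. Of 144 medians of the other lists, 11 moved beyond the spread of the library medians and 5 changed sign. The cause was not tested. No paired analysis was possible because KO and mock share fewer than 2 replicate numbers and the columns carry none. Depth limited Msx2 and Bglap, with 71 and 18 counts in mock.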
